A study of Mus musculus with 8 samples.

Results

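In mouse ventricles, 10 genes of myeloid cell surface receptors were examined 24 hours after myocardial infarction (MI), namely the C-type lectins Clec4d, Clec4e, Clec4n and Clec7a, the triggering receptor Trem1, the Fc receptors Fcgr1, Fcgr2b, Fcgr3 and Fcgr4, and the shared signalling chain Fcer1g. The genes are a list of names, drawn up with earlier results of these data known, and the rule uses no measured difference between the groups. Each gene was read on its brightest retained probe named by a RefSeq transcript. Of the 10 genes, 9 had such a probe, among 15156 genes with a retained RefSeq-named probe, and no probe could be paired with Clec7a. The 4 MI mice had a permanent ligation of the anterior interventricular artery, and the 4 sham mice underwent the same operation without ligation. All 8 were male mice of the C57BL\6 background with no transgene in the labels, and each gave 1 array of total RNA from the ventricles. Infarcted and uninfarcted muscle were therefore measured together. In such bulk RNA, more cells of a type and more RNA per cell cannot be told apart.

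These receptors sit on neutrophils, monocytes, macrophages and dendritic cells, some of them on other leukocytes too, and most have no signalling tail of their own. Clec4e (Mincle), Clec4d (MCL), Clec4n (Dectin-2) and the activating Fc receptors Fcgr1, Fcgr3 and Fcgr4 pair with the FcRγ chain, the product of Fcer1g, whereas Trem1 and Trem2 pair with DAP12, the product of Tyrobp. Both adaptors carry an immunoreceptor tyrosine-based activation motif (ITAM), which recruits the kinase Syk and, through Card9, leads to the transcription of cytokine and chemokine genes. Clec7a (Dectin-1), a receptor of fungal β-glucan, carries such a motif in its own tail. Fcgr2b is the inhibitory Fc receptor, and its inhibitory motif (ITIM) recruits phosphatases that oppose the activating receptors. Mincle binds SAP130 of dead cells as well as mycobacterial glycolipids, and Fc receptors bind the constant part of antibodies.

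Promoter sequences are shown because 8 of the 9 measured genes passed the test in the same direction. RefSeq promoter entries (build GRCm38.p6) were matched for 9 of the 10 genes, all but Clec4n. Short core motifs of myeloid transcription factors were searched on both strands in the 250 bases before the transcription start. The motif GAGGAA, the core of PU.1 sites, was found in 7 of these 9 genes, namely Clec4d, Clec4e, Clec7a, Trem1, Fcgr1, Fcgr3 and Fcgr4, and in 23.3% of 32851 promoters overall. It was absent from these windows of Fcgr2b and Fcer1g. The motif TTGCNNAA, the core of C/EBP sites, was found in 2 of the 9 genes, Clec4e and Fcgr3, and in 9.56% of all promoters. Both gene counts take a gene with any matching promoter entry, while both shares are over single entries, so they are not on the same footing. In the following 60-base stretches of the 6 measured genes that hold it, written 5′ to 3′ on the strand of the gene, capitals mark the PU.1 core or its reverse complement.
Clec4d, chr6:123261857-123261916, plus strand: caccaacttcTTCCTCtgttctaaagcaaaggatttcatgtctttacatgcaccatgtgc
Clec4e, chr6:123289895-123289954, minus strand: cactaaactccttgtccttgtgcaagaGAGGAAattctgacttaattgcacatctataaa
Trem1, chr17:48232550-48232609, plus strand: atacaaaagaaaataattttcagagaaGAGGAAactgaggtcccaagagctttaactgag
Fcgr1, chr3:96293992-96294051, minus strand: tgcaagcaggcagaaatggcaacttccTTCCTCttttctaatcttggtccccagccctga
Fcgr3, chr1:171059404-171059463, minus strand: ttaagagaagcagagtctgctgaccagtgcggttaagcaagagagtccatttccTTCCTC
Fcgr4, chr1:171018866-171018925, plus strand: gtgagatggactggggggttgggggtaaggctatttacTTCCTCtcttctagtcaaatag
The first base of the motif lay 6 bases before the start in Fcgr3, 22 in Fcgr4, 55 in Fcgr1, 56 in Clec4e, 162 in Trem1 and 240 in Clec4d. Fcgr1, whose window held the motif, did not pass the test described next, and Fcgr2b and Fcer1g, whose windows did not hold it, passed. A match of letters is a description of the sequence and not evidence of binding.

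The 8 arrays lay on 1 slide, were scanned in 1 scan and filled 2 rows, each holding 2 MI and 2 sham arrays. On each array, 58.6% to 66.4% of the non-control spots were well above background, and 1 spot of 1 array was saturated. Values are processed intensities brought to a common level through the spike-in RNA that went into each labeling reaction, and differences are MI minus sham on the log2 scale. The number of arrays limits their precision. The median of all 34038 retained probes was shifted by 0.11 with this scaling and by -0.02 when each array was set to its 75th percentile. Each of the 9 receptor probes was well above background on all 8 arrays. Intensities of different probes cannot be ranked against each other, so each gene was compared only between mice.

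Of the 9 measured genes, 8 rose after MI by the criterion of a fold over 2 and an adjusted p under 0.05 in limma, and the ninth, Fcgr1, did not pass it. Over all probes, 4.47% were called by the same criterion, 3.87% as higher and 0.596% as lower in MI, and the higher share was 3.08% among the 16960 probes at least as bright as the dimmest receptor probe. The same 8 genes passed an adjusted p under 0.05 at any fold, as did 4.74% of all probes as higher in MI. The median difference of the 9 genes was 1.23 (2.35-fold), against 0.11 for all retained probes. In all 9 genes every MI mouse was above every sham mouse, a pattern seen in 7.59% of the probes with a value on all arrays. For 4 mice against 4, the exact two-sided permutation test then gives its smallest possible p, 0.0286.

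**Figure D1:**
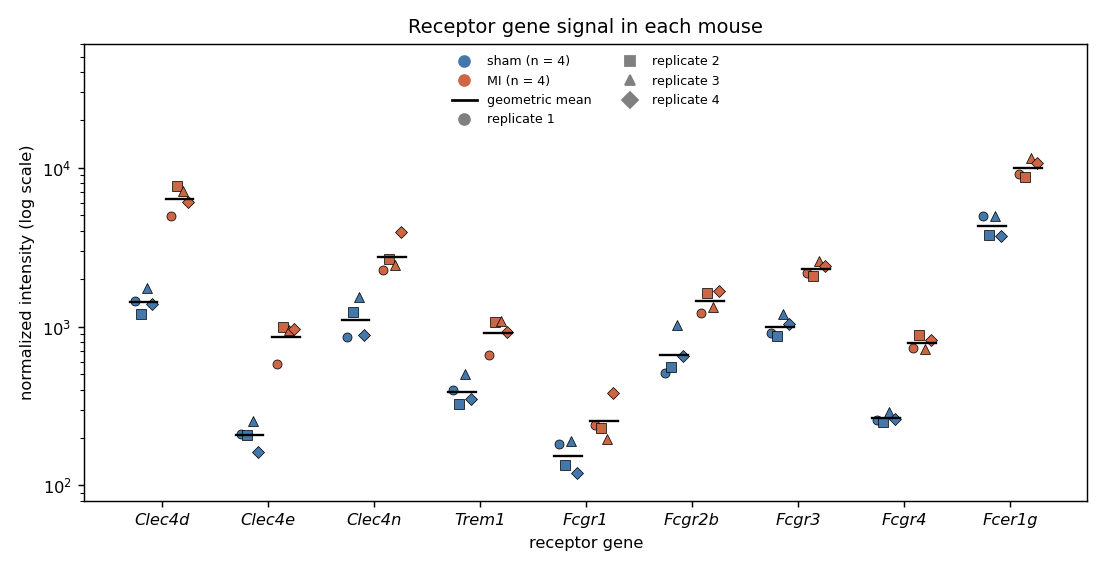
Normalized intensity (log axis) of the 9 measured receptor genes in each mouse, with sham mice in blue, MI mice in orange, 1 marker shape per replicate number and a bar at the geometric mean of 4 mice. In every gene the MI mice lie above the sham mice, with the narrowest gap in Fcgr1, where the highest sham mouse had 189.6 and the lowest MI mouse 196.

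Among the C-type lectins, the neighbours Clec4d and Clec4e showed the 2 largest differences of the 9 genes. Clec4d, which forms a complex with Mincle, had intensities of 4993, 7685, 7093 and 6091 in MI replicates 1 to 4, and of 1443, 1200, 1760 and 1376 in sham replicates 1 to 4. The groups were far apart, and the lowest MI mouse was well above the highest sham mouse. The difference was 2.16 ± 0.23 (SE, n = 4 per group), which is 4.46-fold with a 95% interval of 3.17 to 6.28, and the limma adjusted p was 1.79e-05.

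Clec4e, which encodes Mincle itself, had intensities of 581, 999.6, 944 and 971 in the MI mice and of 211, 208, 256 and 163 in the sham mice. Replicate 1 of the MI group was lower than the other 3, yet above every sham mouse. Its difference was 2.05 ± 0.25 (SE), or 4.13-fold with a 95% interval of 2.87 to 5.96, at a limma adjusted p of 5.85e-05.

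Clec4n, the Dectin-2 gene, lies next to Clec4d on chromosome 6 and rose as well. It had 2255, 2676, 2426 and 3947 in the MI mice and 860.2, 1236, 1529 and 888 in the sham mice, so on the log2 scale the gap between the groups was smaller than the range within each. The difference was 1.33 ± 0.26 (SE), or 2.52-fold with a 95% interval of 1.71 to 3.70, and the limma adjusted p was 0.00500. Without limma's moderation of the variance, the p adjusted over all probes was 0.0808.

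Trem1, which amplifies inflammatory responses of neutrophils and monocytes, had 658, 1060, 1085 and 923 in the MI mice and 398, 325, 505 and 349.7 in the sham mice. The groups did not overlap. The difference was 1.23 ± 0.25 (SE), or 2.35-fold with a 95% interval of 1.64 to 3.37, and the limma adjusted p was 0.00514. Trem1 fell below the 2-fold limit (difference 0.91) with a vsn fit to the spike-ins, and its adjusted p was 0.0554 without moderation of the variance. This vsn fit added 166 to 257 intensity units per array, against 3.16 to 19.6 in the authors' own vsn values, and a larger constant brings the folds of dim probes closer to 1. In the authors' values the Trem1 difference was 1.20.

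Trem2, a macrophage receptor of lipids and cell debris that uses the same adaptor, did not pass the test. It had 921, 650.1, 841 and 1384 in the MI mice and 990.4, 870.4, 991 and 787 in the sham mice, so the groups overlapped. The fold was 1.01, with a 95% interval of 0.696 to 1.46 and a limma adjusted p of 0.988. Within each array, the log2 difference Trem1 minus Trem2 was larger by 1.22 in MI mice, with a pooled SD of 0.469 and no overlap between the groups. The exact permutation p was 0.0286, the smallest these groups allow, and 0.143 after Benjamini-Hochberg adjustment over 15 pairs of genes.

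Of the activating Fc receptors, Fcgr4 and Fcgr3 rose and Fcgr1 did not pass the test. Fcgr4, the mouse receptor of IgG2a and IgG2b on neutrophils and monocytes, had 731, 880.1, 718 and 821 in the MI mice and 256, 251, 289.8 and 260.5 in the sham mice. Its values were tight within both groups, with an SD of 0.14 in MI mice and 0.09 in sham mice on the log2 scale. The difference was 1.57 ± 0.21 (SE), or 2.97-fold with a 95% interval of 2.18 to 4.06, and the limma adjusted p was 0.000161.

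Fcgr3, the low-affinity activating receptor of IgG, had 2172, 2075, 2602 and 2416 in the MI mice and 905, 872, 1206 and 1031 in the sham mice. The groups were well separated. The difference was 1.21 ± 0.22 (SE), or 2.32-fold with a 95% interval of 1.68 to 3.21, at a limma adjusted p of 0.00254.

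Fcgr1, the high-affinity IgG receptor of monocytes and macrophages, was not called. It had 238, 231, 196 and 379 in the MI mice and 182, 135, 189.6 and 120.4 in the sham mice, and replicate 4 of the MI group stood above the other 3. The difference was 0.72 ± 0.26 (SE), or 1.64-fold with a 95% interval of 1.12 to 2.41. The limma p was 0.0141 before and 0.143 after adjustment over all probes.

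Fcgr2b, the inhibitory receptor, had 1221, 1617, 1322 and 1681 in the MI mice and 508, 553, 1024 and 652 in the sham mice. Replicate 3 of the sham group was closer to the lowest MI mouse than to the other sham mice on the intensity scale. The difference was 1.14 ± 0.26 (SE), or 2.20-fold with a 95% interval of 1.51 to 3.21, and the limma adjusted p was 0.0131. This call was lost with the vsn fit (difference 0.93), without the detection filter (adjusted p = 0.0662) and without moderation of the variance (adjusted p = 0.102). The difference was 1.41 within array row 1 and 0.87 within array row 2. Fcgr2b, Fcgr3 and Fcgr4 are related in sequence, and whether their probes bind each other's transcripts was not tested.

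Fcer1g, the chain that the activating Fc receptors and the Mincle family share, had 9132, 8779, 11519 and 10622 in the MI mice and 4988, 3765, 4940 and 3728 in the sham mice. The groups did not overlap, and on the log2 scale the gap between them was wider than the range within each. The difference was 1.21 ± 0.23 (SE), or 2.31-fold with a 95% interval of 1.66 to 3.21, at a limma adjusted p of 0.00321. Tyrobp, the adaptor of the Trem receptors, gave a difference of 1.21 ± 0.24 (SE) from 3 MI and 4 sham mice (limma adjusted p = 0.00574), since its spot in MI replicate 3 carried an outlier flag and was left out. In the authors' values, which have that spot, the Tyrobp difference was 1.64. The within-array difference Fcer1g minus Tyrobp changed by -0.08 (exact permutation p = 0.543, 3 MI and 4 sham mice).

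**Figure D2:**
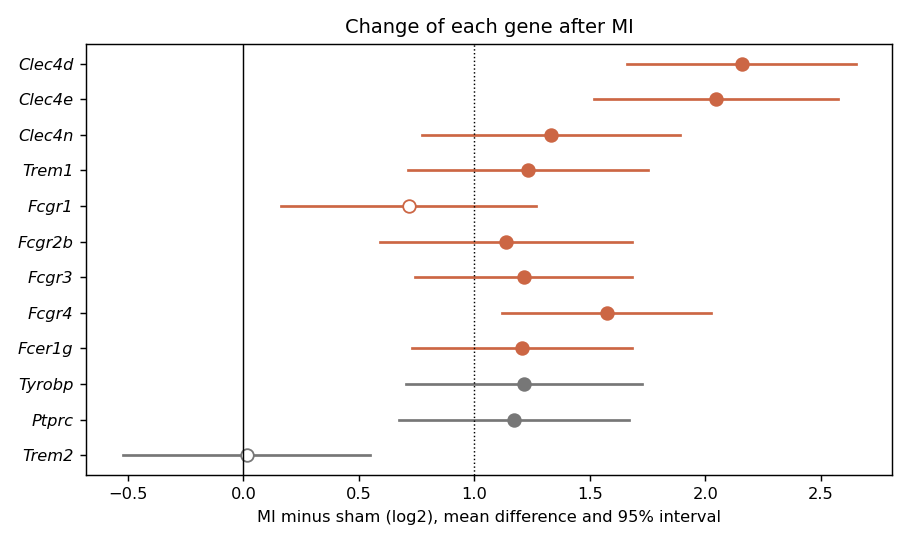
Mean difference MI minus sham (log2, x axis) with its 95% interval from limma for the 9 receptor genes (orange) and 3 genes used for comparison (grey), with filled circles where the gene was called, a solid line at 0 and a dotted line at the 2-fold limit. Clec4d at 2.16 and Clec4e at 2.05 lie farthest to the right, Fcgr1 at 0.72 is open, and Trem2 at 0.01 lies on the line of no difference.

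Whether one receptor gene changed more than another was tested on differences within an array, in which a shift of the whole array cancels. None of the 15 pairs passed the exact permutation test after adjustment, while 3 had an unadjusted p of 0.0286. As 0.0286 is the smallest p these groups allow, a pair at it passes the adjustment only where many other pairs reach it too. The adjusted test therefore cannot decide whether a single pair differed. With Ptprc (CD45, a surface phosphatase of all leukocytes, 2.25-fold higher in MI at a limma adjusted p of 0.00548) as the partner, Clec4d minus Ptprc rose by 0.99 and Clec4e minus Ptprc by 0.88, both with an exact permutation p of 0.0286 and an adjusted p of 0.143. In both of these pairs the MI and sham mice did not overlap. Ptprc itself fell below the 2-fold limit with the vsn fit (0.55), normexp (0.91) and quantile normalization (0.99). Fcgr4 minus Ptprc differed by 0.40 (exact permutation p = 0.0857) and Fcgr1 minus Ptprc by -0.46 (exact permutation p = 0.0857). The differences of Clec4n, Trem1, Fcgr2b, Fcgr3 and Fcer1g against Ptprc lay between -0.03 and 0.16 and each was smaller than its pooled SD. With the vsn fit, whose constants do not cancel within an array and lowered Ptprc itself, they were 0.63, 0.37, 0.38, 0.51 and 0.62, and all but that of Fcgr2b had an exact permutation p adjusted to 0.0429.

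The changes of the activating Fc receptor genes were compared with that of the inhibitory Fcgr2b. Against Fcgr2b, the difference was 0.43 for Fcgr4 (pooled SD 0.270, exact permutation p = 0.0571), 0.08 for Fcgr3 (pooled SD 0.268, exact permutation p = 0.714) and -0.42 for Fcgr1 (pooled SD 0.391, exact permutation p = 0.171). The pair Fcgr1 and Fcgr2b differed by -0.83 in array row 1 and by -0.02 in row 2, from -0.54 to -0.22 without single mice, and by -0.57 with the vsn fit (exact permutation p adjusted to 0.0429). Clec4e and Clec4d differed by -0.11 in their change (pooled SD 0.207, exact permutation p = 0.486). With the vsn fit, 10 of the 15 pairs, these last among them at -0.65, had an adjusted p of 0.0429.

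The size of the differences depended on the normalization. The differences of Clec4d stayed between 2.01 and 2.27 over all 23 alternatives tried, while those of Clec4e ran from 1.36 to 2.23 and those of Fcgr1 from 0.36 to 0.85. No receptor gene changed direction in any of them. In the authors' normalized values the median difference of the 9 genes was 1.20.

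**Figure D3:**
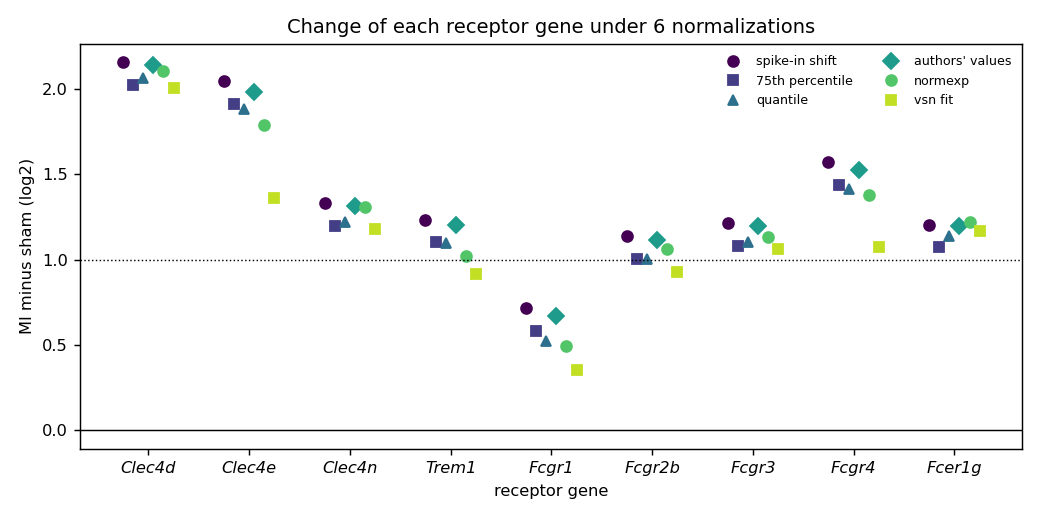
Difference MI minus sham (log2, y axis) of the 9 receptor genes under 6 normalizations, 1 marker per normalization, with the 2-fold limit dotted. All markers lie above 0, and those of the vsn fit are lowest for 8 of the 9 genes, among them Clec4e (1.36), Fcgr4 (1.07), Fcgr2b (0.93), Trem1 (0.91) and Fcgr1 (0.36).

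The order of the mice within a group was not the same under each scaling. With the spike-in scaling, sham replicate 3 had the highest value of its group in 8 of the 9 genes, and its spike-in signal was the lowest of the 8 arrays (shift -0.38). With scaling to the 75th percentile it was highest in 3 genes and sham replicate 2 in 6. MI replicate 1 was the lowest MI mouse in 5 genes with the spike-in scaling and in 7 with the 75th percentile.

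Genes listed under ITAM signalling, a list that mixes receptors and adaptors with steps below them, rose in part. Of 17 measured genes of this list, 9 were called higher and none lower, with a median difference of 1.00. They included the Src family kinase Fgr (4.41-fold, limma adjusted p = 2.45e-05), the ITAM receptor Nfam1 (3.11-fold, limma adjusted p = 0.000224) and the adaptor Hcst, also called DAP10 (2.47-fold, limma adjusted p = 0.00129). Whether each listed gene acts through an ITAM was not checked. Also among the 9, and named after their values were seen, Btk (2.00-fold) and Prkcd (2.01-fold) lay at the 2-fold limit. Lcp2, another of them, was well above background on only 4 arrays. It had intensities of 13.8 to 25.7 in MI and 3.16 to 7.10 in sham mice, so it can pass the detection filter through the MI mice alone. Syk, named here after its values were seen because the ITAM-coupled receptors signal through it, was at 1.93-fold with a limma adjusted p of 0.0339 and so under the 2-fold limit. Also not called were Bcl10 (1.06-fold), Malt1 (1.27-fold), Plcg2 (1.18-fold) and Lyn (1.37-fold), named after their values were seen. Card9 had no retained probe. The count of 9 fell to 5 with scaling to the 75th percentile and to 2 with the vsn fit. The share of all probes called higher fell too, from 3.87% to 3.06% and 0.940%.

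Of 13 measured genes listed as ITIM receptors and phosphatases, 6 were called higher and none lower, with a median difference of 0.83. Whether each listed mouse receptor carries the inhibitory motif was not checked. Those called included Cd300lf (9.64-fold), Cd33 (7.98-fold), Lilrb4a (5.66-fold) and Pilra (3.20-fold), all receptors of myeloid cells, with limma adjusted p-values of 1.09e-06, 1.26e-06, 9.40e-06 and 0.000182. The 3 retained probes of Cd300lf differed among themselves, from 1.58 to 3.28 on the log2 scale.

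Among other receptors of the Trem, Cd300 and paired families, 6 of 13 measured genes were called higher and none lower, with a median of 1.28. Trem3, a DAP12-coupled relative of Trem1, was 5.61-fold higher (limma adjusted p = 1.75e-05), Sirpb1a 4.02-fold (3.77e-05), Treml2 3.66-fold (0.000209) and Pilrb2 3.34-fold (0.000621). With the vsn fit 1 of these 13 genes was called, where 0.940% of all probes were called higher. Of 22 other measured C-type lectins 1 was called higher, Olr1, a receptor of oxidized lipoprotein whose probe was not well above background on all arrays, and the list's median was 0.13. None of the 6 measured other Fc receptors was called, with a median of 0.27 and an unadjusted limma p under 0.05 in 1 of them.

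Ligands were measured for 4 of the 5 genes listed. Pglyrp1, a peptidoglycan recognition protein reported as a Trem1 ligand, was 7.34-fold higher in MI (95% interval 4.80 to 11.2, limma adjusted p = 8.85e-06). Ptx3, a long pentraxin that Fc receptors can bind, was 3.28-fold higher (95% interval 2.19 to 4.91, limma adjusted p = 0.000829). Sap130, whose product Mincle binds, was at 0.917-fold (95% interval 0.641 to 1.31), and Apcs, the serum amyloid P gene, at 1.23-fold (95% interval 0.797 to 1.91), and neither passed the test.

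Of 14 measured cytokine, chemokine and other genes known to be induced through Syk and Card9, 10 were called higher and none lower, with a median difference of 2.86. Over all probes, 3.87% were called higher. Il12b, Il23a and Egr3 had no retained probe. Csf2 was well above background on 4 arrays, with intensities of 61.8 to 159 in MI and 2.03 to 3.60 in sham mice, and Csf3 on 5 arrays. Such genes can pass the detection filter mainly through the MI mice, so the count depends in part on that filter. Cxcl2, a neutrophil chemoattractant, was 19.2-fold higher (limma adjusted p = 3.03e-06), Ccl4 16.0-fold (8.81e-06), Il6 10.8-fold (0.000103) and Il1b 9.96-fold (0.000167). In the sham mice Cxcl2 was dim, at 15.9 to 42.4, and a larger additive constant would bring its fold closer to 1. Not called were Egr1 (1.15-fold), Nlrp3 (1.14-fold), Il10 (1.71-fold) and Egr2 (2.09-fold, limma adjusted p = 0.102). Csf2, Csf3 and the genes not called were named after their values were seen. Other receptors induce the listed genes too.

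Most measured markers of neutrophils were called higher in MI as well. Of 11 measured markers 9 were called higher and none lower, with a median of 3.03, against 3.87% of all probes called higher. No retained probe was found that the RefSeq table pairs with the defining marker Ly6g. Among the 9, Ngp was well above background on 4 arrays and Ltf on 6, both named after their values were seen. Ngp had intensities of 14.1 to 157 in MI and 2.07 to 3.59 in sham mice, so it can pass the detection filter through the MI mice alone. The summed intensity of the markers, in which the brightest probes weigh most, was 245810, 319459, 317075 and 208642 in MI replicates 1 to 4. It ran from 62261 to 79103 in the sham mice. Retnlg (19.3-fold, limma adjusted p = 3.82e-07), the chemokine receptor Cxcr2 (a log2 difference of 3.70, 7.20e-07), the decoy receptor Il1r2 (9.97-fold, 5.94e-07) and the collagenase Mmp8 (8.47-fold, 3.35e-06) were among them. The part of these cells in the receptor values was not tested.

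Of 11 measured markers of monocytes and macrophages, 2 were called higher, Cd14 (4.82-fold, limma adjusted p = 0.000161) and Ccr2 (2.34-fold, 0.00790), and none lower, while the median was -0.04. The list mixes markers of both cell types, so its median describes neither of them alone. Summed over the list, where the brightest probes again weigh most, MI mice had intensities of 19490 to 30108 and sham mice of 17042 to 24380, so the groups overlapped. No probe was paired with Ly6c2 or Cd68 through the RefSeq table used here, so neither was analysed. Itgax of the dendritic cell list was 3.18-fold higher (limma adjusted p = 0.00117), as 1 of 5 genes. In the lists of T and B cells 1 gene each was called, Cd3d of 3 and Ms4a1 of 4, and both calls were lost with the 75th percentile, the vsn fit and the authors' values. None of the 5 mast cell and basophil markers, the 3 natural killer cell markers, the 6 cardiomyocyte markers, the 6 fibroblast markers or the 5 endothelial markers was called in limma, with medians from -0.49 to 0.18 and an unadjusted p under 0.05 in 3 of these 25 genes. The 6 cardiomyocyte markers, Myh6 among them, were well above background in all 8 mice, as the labelled tissue requires.

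**Figure D4:**
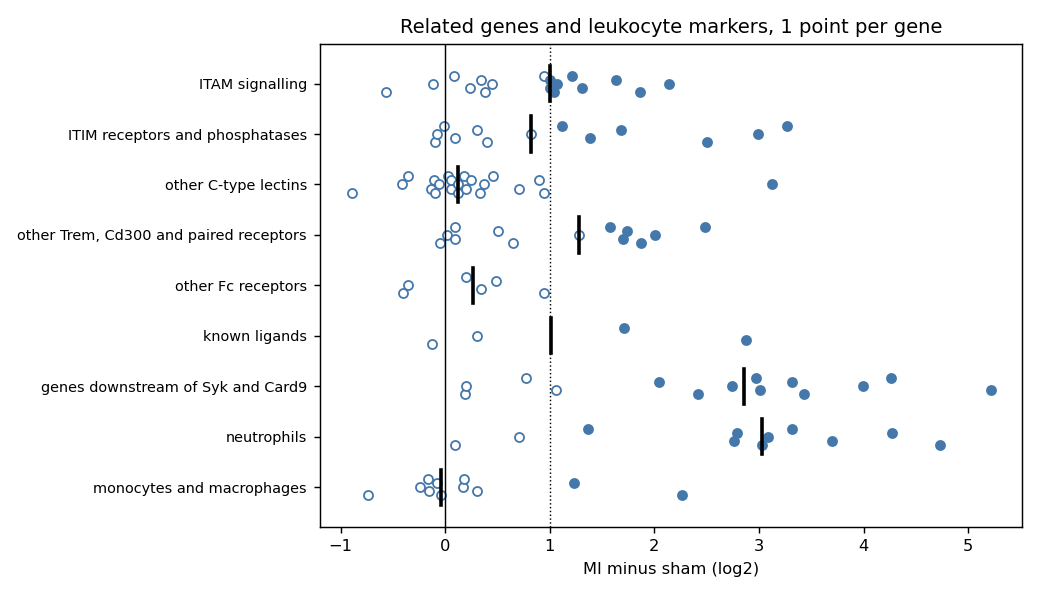
Difference MI minus sham (log2, x axis) of single genes in 7 lists related to the receptors and in the 2 leukocyte marker lists, 1 point per measured gene, filled where called, with a bar at each list's median and a dotted line at the 2-fold limit. The medians of the genes downstream of Syk and Card9 (2.86) and of neutrophil markers (3.03) lie far to the right, and those of other C-type lectins (0.13) and of monocytes and macrophages (-0.04) near 0. In the mixed list of monocytes and macrophages, Cd14 and Ccr2 were called.

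All measured genes but Fcgr1 lie in 3 chromosomal clusters, and their neighbours in the RefSeq gene order were compared. On chromosome 1, Fcgr2b, Fcgr4 and Fcgr3 are adjacent and Fcer1g follows after 7 other genes. All 4 receptor genes were called, and none of the 7 genes between Fcgr3 and Fcer1g was, with differences from -0.41 to 0.32 and limma adjusted p-values of at least 0.403. Of 14 measured neighbours in and around this cluster, 1 was called, Adamts4, a secreted protease of proteoglycans (2.98 ± 0.34 SE, limma adjusted p = 3.24e-05). On chromosome 6, Clec4n, Clec4d and Clec4e are adjacent, and none of the 4 measured neighbours was called. The highest of them was Clec4b1, a lectin of dendritic cells, with 0.90 ± 0.24 SE (limma adjusted p = 0.0392), below the 2-fold limit.

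On chromosome 17, 5 of 13 measured neighbours of Trem1 were called. Within the Trem cluster, Trem3 (2.49), Treml2 (1.87) and the predicted family member B430306N03Rik (2.40) rose, and Treml4 (0.50), Trem2 (0.01) and Treml1 (0.10) did not pass the test. Before Trem1 lie A530064D06Rik (2.43) and Mdfi (1.50), which were called. The genes outside the lists were named after their values were seen.

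**Figure D5:**
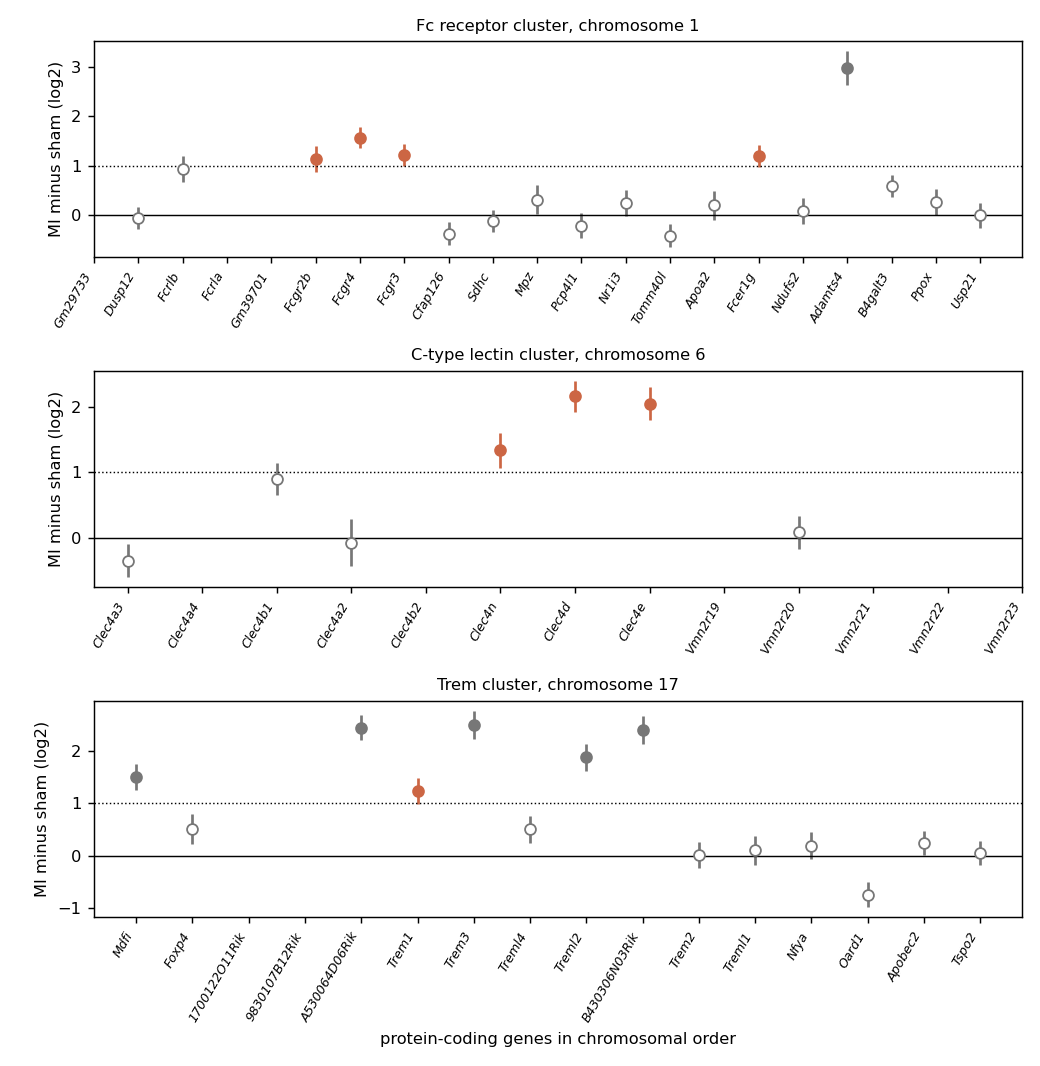
Difference MI minus sham (log2, y axis; circle) ± SE (vertical line) of genes in chromosomal order around the receptor genes on chromosomes 1, 6 and 17, with receptor genes in orange, other genes in grey, filled circles where called and no circle where no retained probe was paired with the gene. On chromosome 1 the genes between Fcgr3 and Fcer1g lie between -0.41 and 0.32, and on chromosome 17 called genes stand beside genes that were not called.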

How the data were processed

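Total RNA of 4 MI and 4 sham ventricles was hybridized in 1 colour (Cy3) to mouse SurePrint G3 8x60K arrays, 1 per mouse. The authors deposited the intensities as Feature Extraction 11.0.1.1 wrote them, corrected within each array for local background and spatial trend and not normalized between arrays. The authors' own log2 values, made with limma and vsn from spike-in probes for spots well above background, were used as an alternative. Their medians lay between 7.48 and 8.07 per array.

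Here log2 processed signals were shifted by each array's mean log2 signal of 234 spots of 7 spike-in probes. Outlier-flagged spots were dropped, replicate spots averaged, and 34038 of 55681 probes, well above background on 4 or more arrays, retained. Groups were compared in limma 3.58.1 (R 4.3.3) without covariates, with Benjamini-Hochberg adjustment over all retained probes. A probe was called at a fold over 2 and an adjusted p under 0.05. Single values and within-array differences between genes were compared with exact two-sided permutation tests (Python 3.11.15, numpy 2.4.6, scipy 1.17.1, pandas 2.3.3, matplotlib 3.10.9 for figures).

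Probes were named through RefSeq accessions in the GRCm38.p6 gene table, which paired 26582 of the 55681 probes. The array's design build is mm9, so no gene positions are given for probes. The brightest retained probe stood for a gene. Named genes are the receptor genes, the partners Trem2, Tyrobp and Ptprc, all known ligands, and up to 4 called genes per list and direction with the largest fold among those well above background on all arrays, apart from 1 gene that is not reported here. Members, lists and tests were chosen with earlier results of these data known. Alternatives were scaling to the 75th percentile, a vsn fit to the spike-in spots, quantile normalization, normexp with an offset of 50 on the deposited median spot and background intensities, the authors' log2 values, other detection filters, the mean over probes, a limma trend, significance analysis of microarrays with all 70 label permutations, a t-test without moderation, a block for replicate number or array row, each row alone, and each mouse left out.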

Additional observations from a re-analysis of the deposited data

Results flagged for a closer look

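Among 23 sets of 4 mice, 1 gene in 1 group each, 1 held a value far from the others, where chance alone gives about 1 in 20. For Clec4e in MI mice, the gap of the lowest mouse to the nearest other took 0.894 of the group's range on the log2 scale, above the 95% limit of Dixon's test. MI replicate 1 had an intensity of 581, and the other MI mice had 944 to 999.6. In the summed neutrophil markers, in which the brightest probes weigh most, this mouse had 245810, between MI replicate 4 with 208642 and the other MI mice. Without MI replicate 1 the difference of Clec4e was 2.23, the highest of its 23 alternatives.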

How the results depend on the processing

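None of the 9 receptor genes changed direction under any of 23 alternatives, and of 189 recomputed values with a test 183 stayed on the same side of the threshold and 6 lost their call. Of 18 values of single array rows, which have no test, 16 moved by less than the replicate SD and the 2 of Fcgr2b by more. Leaving out each mouse in turn left 8 receptor genes called each time (8 to 8), with an adjusted p of at most 0.0418 for Fcgr2b and at least 0.118 for Fcgr1. The number of receptor genes called was 6 with the vsn fit, 7 without a detection filter and 5 with the unmoderated t-test, in which 5 also had an adjusted p under 0.05. The number of probes called was 1520, and 333 with the vsn fit, 609 with normexp, 1013 in the authors' values, 993 without a detection filter, 636 with the unmoderated t-test and 1238 to 1850 without single mice. Probes called higher numbered 320 with the vsn fit, 545 with normexp, 629 with the unmoderated t-test and 1033 to 1693 without single mice. These were 0.940%, 1.60%, 1.85% and 3.03% to 4.97% of the probes tested, and 1.69% without a detection filter. No within-array difference between genes passed without single mice (0 to 0), and 10 did with the vsn fit. Such a count depends on how many pairs reach the smallest possible p, so the lack of a pass does not show that no pair differed. Calls split into 1317 higher and 203 lower with the spike-in scaling, 1043 and 401 with the 75th percentile, and 952 and 459 with quantile normalization. With a replicate block, 8 receptor genes and 1551 probes were called. Deviations from the group means correlated with 0.196 between the mice numbered 1 and with -0.0731 to 0.0416 for the other numbers, so the numbers were not taken as pairs. Lists were recounted with the 75th percentile, the vsn fit and the authors' values after seeing the data, and with the vsn fit the calls of Olr1 and Itgax and 1 of the 2 monocyte and macrophage calls were lost. The cause of these changes was not tested. Every receptor gene had 1 probe, so the mean over probes changed nothing, and each row alone gives values with no count of calls. With 4 arrays a group, the 95% interval of 6 of the 9 receptor genes included 2-fold.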
